A study of Mus musculus with 9 samples.

Results

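CWG-cPIP-treated CUG300 mice were compared with CUG10 mice to describe the expression differences that were still present in the hippocampus of treated animals. Genes entered the comparison when their rlog averaged log2(10) or more across the 9 mice, which gave 14867 of the 24411 genes listed for each mouse. The comparison set 3 treated CUG300 mice against 3 CUG10 mice, and 3 vehicle-treated CUG300 mice completed the series. All mice were wild-type male C57BL/6J animals, labelled as 10 weeks old. An AAV9 vector carrying Egfp with either 10 or 300 CTG units in the 3′-UTR had been delivered to the CA1 region of both hippocampi. The vector was mixed before delivery with CWG-cPIP or with vehicle, dimethyl sulfoxide in buffered saline, and hippocampal total RNA was taken 10 days later. As a model, the repeat RNA came from a viral vector and not from an endogenous locus, and all groups including the controls received the virus. The Egfp repeat transcript itself and treated CUG10 mice were not analysed here. The values are regularized log counts (rlog), which the authors shrank toward each gene's mean, so that a difference of 1 stands for a 2-fold change in read number for a well-covered gene and understates the change of a poorly covered one.

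Expanded CUG repeat RNA folds into hairpins that collect in nuclear foci and bind muscleblind-like (MBNL) splicing factors, the process at the root of myotonic dystrophy type 1. Long double-stranded RNA and viral vectors can also be sensed by cytosolic receptors, which switch on interferons and, through them, a broad set of antiviral genes in neurons, glia and blood-borne cells. CWG-cPIP is a cyclic pyrrole-imidazole polyamide, a small molecule built to bind CAG and CTG repeat DNA and so to hinder transcription through the repeat.

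Treated mice differed from CUG10 mice mainly in a higher level of interferon-induced, antigen-presentation, chemokine and reactive astrocyte genes. A smaller set of neuronal genes led by Stx1a, Kcnj4, Ephb6, Sv2b and Npas4 was lower in every treated mouse than in every CUG10 mouse, and several markers of thalamus and striatum also did not overlap between the groups. No single gene reached an adjusted p under 0.05 by limma with Benjamini-Hochberg correction (0% of 14867), and the smallest adjusted p was 0.0879. At an unadjusted p under 0.05, 1207 genes were higher in treated mice (8.12% of those tested) and 790 were lower (5.31%). Centring every mouse on its own median gave 936 higher and 1259 lower, which moved the share on the higher side from 60.4% to 42.6% while shifting the median of all genes only to -0.06. Without any model, 1991 genes had all 3 treated mice above all 3 CUG10 mice (13.4%), and 1848 had all 3 below (12.4%). After median centring these counts were 1348 and 2821. An exact permutation test on 3 against 3 mice cannot go below p = 0.1, so single genes were judged by the limma fit alone. Its p-values set each difference against a variance pooled over all 9 mice, vehicle-treated CUG300 mice included, and moderated across genes.

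The distribution of differences was narrower than for untreated CUG300 mice. The median absolute difference from CUG10 mice was 0.135 in treated and 0.216 in vehicle-treated CUG300 mice, with 99th percentiles of 1.70 and 2.53. A difference of at least 1 was found for 382 genes upward and 41 downward in treated mice, against 764 upward and 29 downward in vehicle-treated CUG300 mice. Both contrasts use the same CUG10 mice, so the values stand side by side and were not tested against each other.

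**Figure D1:**
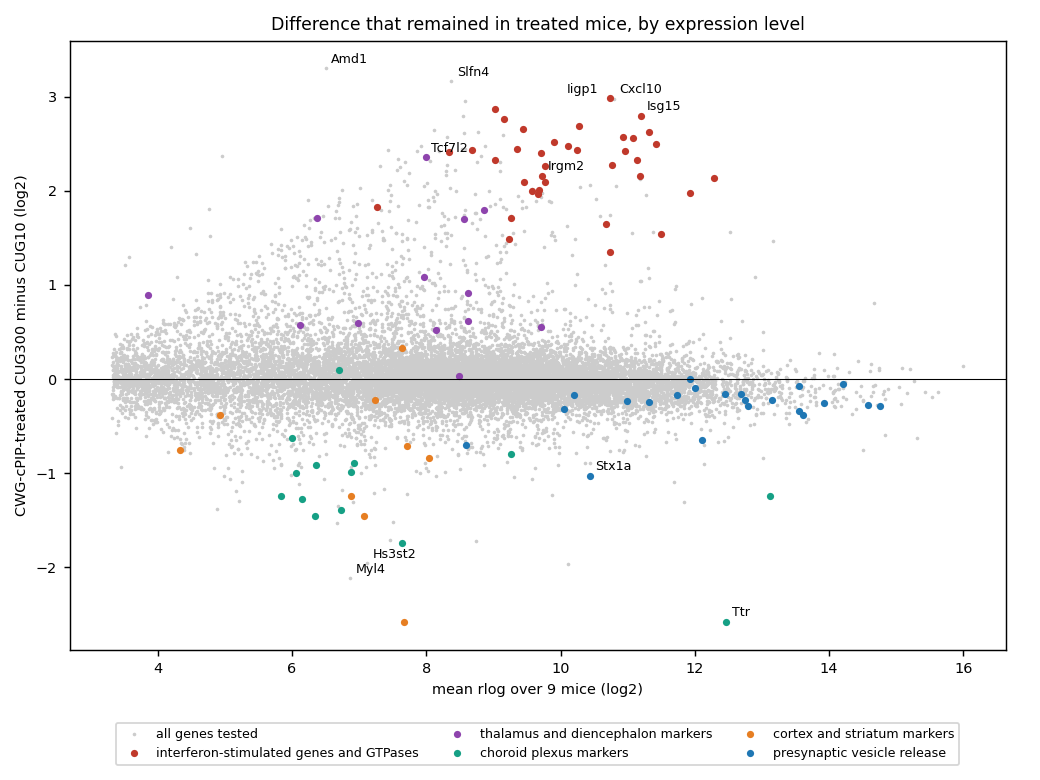
Difference between treated CUG300 and CUG10 mice (y axis, log2) against the mean rlog over 9 mice (x axis, log2), 1 point for each of 14867 genes. Interferon-stimulated genes and GTPases (red) lie between 1.35 and 2.98, presynaptic genes (blue) at or below 0, and the choroid plexus marker Ttr lies at -2.58.

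The treated mice were not alike. Averaged over 25 interferon-stimulated genes, the 3 treated mice stood 2.504, 0.86 and 3.18 above the CUG10 mean, while vehicle-treated CUG300 mice stood at 3.03, 2.85 and 3.18. Treated replicate 2 was thus nearest to CUG10 and replicate 3 level with untreated mice in the interferon, antigen presentation, chemokine and complement lists. Without treated replicate 2, 567 genes passed an adjusted p of 0.05 by limma, 497 higher and 70 lower. Without treated replicate 3, 4 genes passed, namely Foxb1, Mab21l2, Gata3 and Lhx5, all developmental transcription regulators. Median rlog per mouse lay between 8.43 and 8.54 and sequencing depth is not known, so no count-based error can be given. These are whole-tissue values, in which fewer cells of a type and less RNA per cell cannot be told apart.

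**Figure D2:**
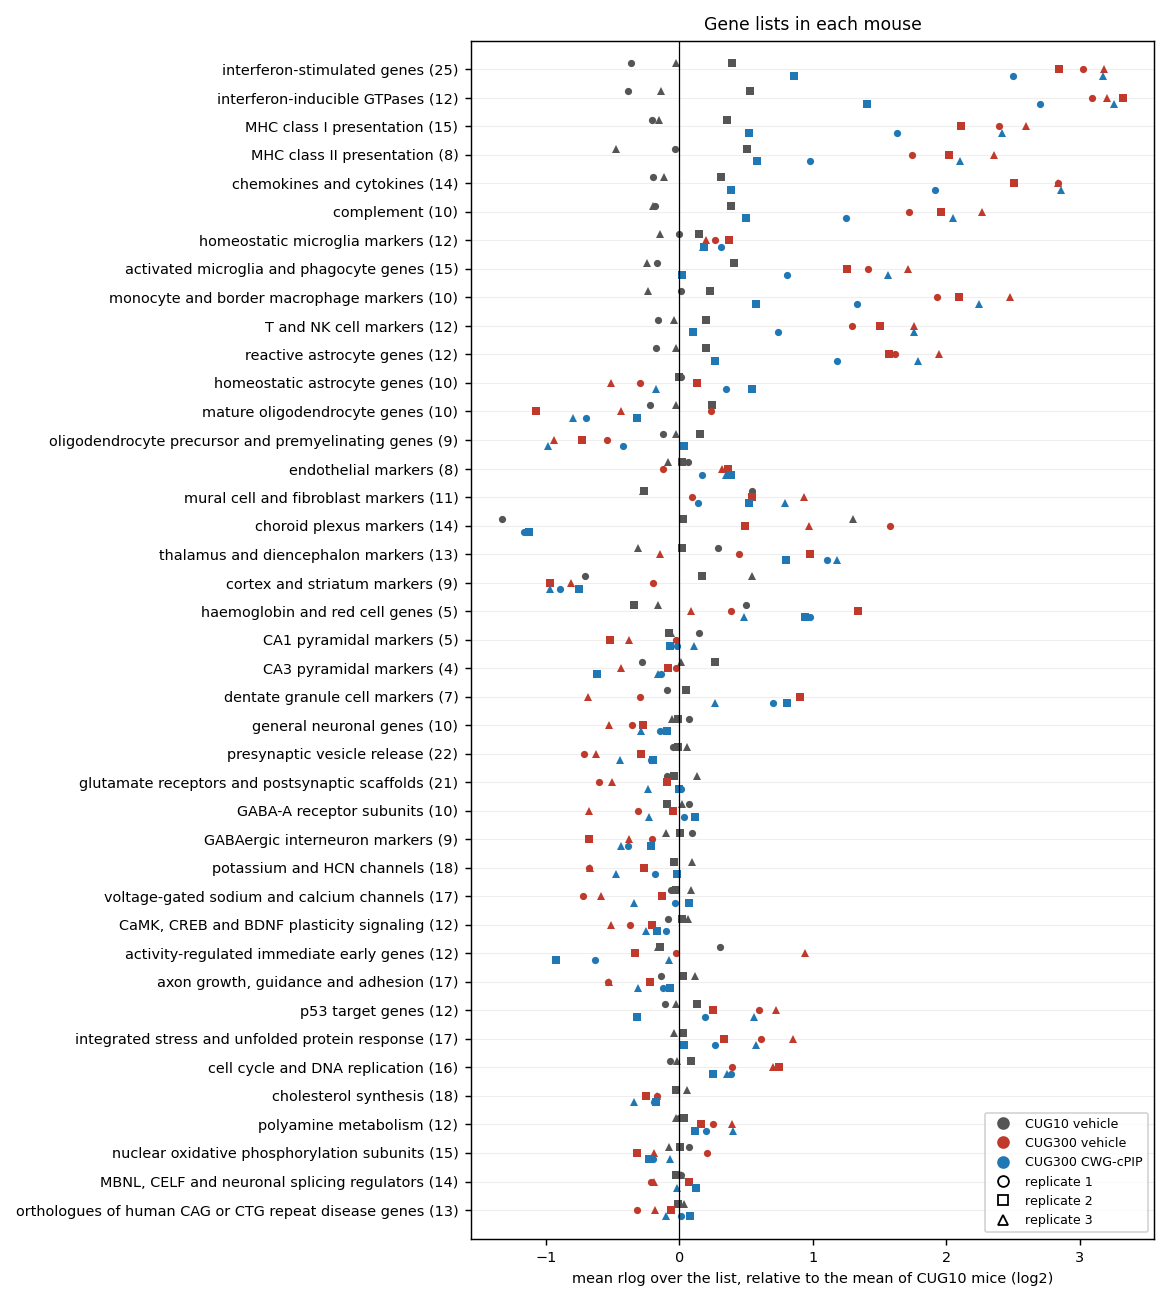
Mean rlog over each of 41 gene lists in every mouse, relative to the mean of the CUG10 mice (x axis, log2), with the number of genes measured in parentheses. In the first 6 lists, treated replicate 2 (blue square) lies nearest to CUG10 and treated replicate 3 (blue triangle) among the vehicle-treated CUG300 mice, whereas the 3 treated mice lie together in choroid plexus, between -1.17 and -1.13.

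Interferons act on their target genes through short response elements near the transcription start, and promoters of the genes that led the comparison were searched for their letters. The core of the interferon-stimulated response element, GAAANNGAAA, was searched on both strands of the RefSeq promoters (GRCm38.p6), each spanning 250 bases before to 50 after a gene start. It was found in 3.44% of all 32851 promoters and in 3.13% of the 14390 promoters of genes tested. It was present in 12 of 18 promoters of the interferon-stimulated list, 8 of 10 of the interferon-inducible GTPases and 4 of 14 of MHC class I presentation. Among promoters of genes higher in treated mice at an unadjusted p under 0.05 the share was 10.8%, and among those lower it was 1.95%. The interferon lists were made of known interferon targets, so high shares in them followed from the choice of lists. All 25 interferon-stimulated genes and all 12 GTPases were themselves among the genes on the higher side. These counts describe letters in a window and not factor binding, and a role of interferon signaling was not tested. The windows below, 30 bases each on the strand of the gene, show the element in 8 of these promoters, with the matching letters in capitals (TTTCNNTTTC is the same element read on the other strand).
Isg15: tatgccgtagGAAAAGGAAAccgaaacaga
Rsad2: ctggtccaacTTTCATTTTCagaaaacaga
Ifit1: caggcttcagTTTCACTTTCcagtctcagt
Bst2: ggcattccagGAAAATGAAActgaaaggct
Tgtp2: tccaggaatcGAAACCGAAAcctactctga
Gbp2: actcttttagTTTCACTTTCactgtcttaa
Gbp5: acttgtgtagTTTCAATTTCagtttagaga
Igtp: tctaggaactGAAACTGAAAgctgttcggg
They lie at chr4:156200877-156200906 (minus strand), chr12:26456553-26456582 (minus), chr19:34640775-34640804 (plus), chr8:71537583-71537612 (minus), chr11:49064263-49064292 (minus), chr3:142620594-142620623 (plus), chr3:142496759-142496788 (plus) and chr11:58199512-58199541 (plus), in the order shown.

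The interferon-stimulated list was higher throughout. All 25 of its genes had an unadjusted p under 0.05 on the higher side, against 8.12% of all genes, and 24 of 25 did not overlap, against 13.4%. Their differences ran from 1.35 to 2.87 with a median of 2.13, and the median over all genes tested was near 0. The same list had a median of 2.93 in vehicle-treated CUG300 mice, where all 25 passed an adjusted p of 0.05. The smallest adjusted p in the treated comparison was above 0.05, and without treated replicate 2 all 25 passed with a median of 2.77. Without treated replicate 3 the median was 1.69 and none passed, and none passed without treated replicate 1. The all-gene shares of 8.12% and 13.4% also apply to the higher lists below, and 5.31% and 12.4% to the lower ones.

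Isg15, a ubiquitin-like modifier induced by interferon, measured 8.41, 9.52 and 8.91 in CUG10 mice, 12.10, 10.03 and 13.08 in treated mice, and 13.32, 12.36 and 13.03 in vehicle-treated CUG300 mice. Every treated mouse was above every CUG10 mouse, treated replicate 2 by the least, and replicate 3 lay within the range of untreated CUG300 mice. Its difference was 2.80 ± 0.67 (SE), with a 95% interval of 1.29 to 4.30 and an adjusted p of 0.16 by limma. The SD was 0.56 in CUG10, 0.49 in vehicle-treated CUG300 and 1.56 in treated mice. The SE, interval and p, pooled over 3 groups, are thus too small for this gene and others that varied most among treated mice. Rsad2, which encodes the antiviral enzyme viperin, measured 7.66, 8.59 and 8.07 in CUG10 and 11.27, 8.81 and 12.31 in treated mice. The replicate 2 value of Rsad2 exceeded the highest CUG10 value only narrowly, whereas the other treated mice were far above it (difference 2.69 ± 0.72). Ifit1, an RNA-binding effector, differed by 2.49 ± 0.56, Bst2, the virion tether tetherin, by 2.33 ± 0.59 and Ifi44 by 2.76 ± 0.55. Ifih1 encodes MDA5, a cytosolic sensor of long double-stranded RNA. It measured 7.90, 8.20 and 8.19 in CUG10 mice and 10.54, 8.91 and 10.88 in treated mice, without overlap, for a difference of 2.01 ± 0.42. Mx1, annotated as a pseudogene in this strain's reference, differed by 2.87 ± 0.77. Slfn4 showed the second largest positive difference of all named genes, 3.17 ± 0.94, from 5.69, 5.82 and 5.67 to 9.21, 6.38 and 11.10. The treated mice spread widely for Slfn4, and reads of the closely related Schlafen genes may be shared.

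Interferon-inducible GTPases attack the membranes of intracellular pathogens. All 12 had an unadjusted p under 0.05 on the higher side and did not overlap, with differences of 2.16 to 2.98 and a median of 2.43, beside 3.24 in vehicle-treated CUG300 mice. Irgm2 (chr11:58214977-58222783), a regulator of the family, measured 7.76, 8.73 and 7.89 in CUG10, 10.39, 9.81 and 10.66 in treated and 10.62, 10.98 and 10.70 in vehicle-treated CUG300 mice. All 3 treated mice exceeded the highest CUG10 mouse, and the difference of 2.16 ± 0.28 (95% interval 1.52 to 2.79) gave the smallest adjusted p of any named gene on the higher side, 0.0879 by limma. Iigp1 measured 7.91, 9.21 and 8.41 in CUG10 and 11.87, 10.34 and 12.26 in treated mice, a difference of 2.98 ± 0.47 (adjusted p = 0.097 by limma). Gbp7 (2.40 ± 0.36), Igtp (2.42 ± 0.37), Gbp6 (2.47 ± 0.38) and Gbp10 (2.34 ± 0.37) had the same adjusted p of 0.097. Tgtp2 (2.66 ± 0.44), Gbp2 (2.56 ± 0.47) and Gbp5 (2.52 ± 0.54) had adjusted p values of 0.108, 0.119 and 0.13. Members of these tandem families share long stretches of sequence, so reads may have been divided between copies, and their values are not independent. Without treated replicate 2 all 12 passed an adjusted p of 0.05, and without treated replicate 1 or replicate 3 none did.

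Antigen presentation genes were higher as a group. Of 15 class I genes, 14 had an unadjusted p under 0.05 on the higher side, 13 did not overlap and the median was 1.55, beside 2.27 in vehicle-treated CUG300 mice. B2m, the light chain shared by class I molecules, measured 11.94, 12.17 and 11.66 in CUG10, 13.54, 12.47 and 14.16 in treated and 14.08, 14.06 and 14.38 in vehicle-treated CUG300 mice. Treated replicate 2 exceeded the top CUG10 mouse by the smallest margin and replicate 3 fell inside the untreated range, for a difference of 1.47 ± 0.36 (adjusted p = 0.163 by limma). The heavy chain H2-K1 differed by 1.57 ± 0.48, the immunoproteasome subunit Psmb8 by 2.06 ± 0.55 and the peptide transporter Tap1 by 2.04 ± 0.44. For class II, 7 of 8 genes had an unadjusted p under 0.05 on the higher side and 5 did not overlap. H2-Aa measured 7.73, 8.51 and 6.98 in CUG10 mice and 9.11, 8.57 and 10.74 in treated mice, so that the lowest treated mouse was just above the highest CUG10 mouse (1.74 ± 0.56). Its chaperone Cd74 differed by 1.73 ± 0.55. The class II median was 1.33 with all treated mice and 0.90 without treated replicate 3.

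Chemokines and complement followed. Among 14 chemokines and cytokines, 13 had an unadjusted p under 0.05 on the higher side but only 7 did not overlap, and the median was 1.65 beside 2.76 in vehicle-treated CUG300 mice. Cxcl10, which draws T cells, measured 7.91, 9.02 and 8.24 in CUG10, 11.99, 9.43 and 12.69 in treated and 12.77, 12.43 and 12.68 in vehicle-treated CUG300 mice. Treated replicate 3 was within the untreated range and replicate 2 was close to the highest CUG10 mouse, for a difference of 2.98 ± 0.70 (95% interval 1.39 to 4.57). The monocyte attractants Ccl2 and Ccl7 differed by 2.61 ± 0.74 and 2.65 ± 0.76. All 10 complement genes had an unadjusted p under 0.05 on the higher side, 4 of them without overlap, with a median of 1.12. C3, the central component, measured 5.94, 7.42 and 6.32 in CUG10 and 8.38, 7.50 and 9.46 in treated mice (1.89 ± 0.53), so that CUG10 replicate 2 and treated replicate 2 nearly met. Cfb of the alternative pathway differed by 2.44 ± 0.79, with overlap between those same mice.

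Markers of resident and blood-borne immune cells differed in degree. Of 12 homeostatic microglia markers, 4 had an unadjusted p under 0.05 on the higher side, against 8.12% of all genes. The list median was 0.19, close to the 0.23 of vehicle-treated CUG300 mice. P2ry13, a purine receptor, measured 6.92, 7.01 and 6.83 in CUG10 and 7.83, 7.45 and 7.69 in treated mice, without overlap (0.74 ± 0.17, adjusted p = 0.137 by limma). P2ry12, the receptor by which resting microglia sense injury, measured 8.80, 8.48 and 8.24 against 8.39, 8.72 and 7.90, which overlap, and its interval of -0.76 to 0.42 does not exclude a moderate difference either way. Tmem119 differed by 0.54 ± 0.16. Of 15 genes of activated microglia and phagocytes, 5 had an unadjusted p under 0.05 on the higher side and 2 did not overlap, beside 8.12% and 13.4% of all genes. The list median was 0.82, with 12 genes above 0. Averaged over this list, treated replicate 2 stood at 0.016, inside the CUG10 range of -0.24 to 0.41. Cybb, the catalytic subunit of the phagocyte oxidase, measured 6.23, 7.16 and 6.28 in CUG10 and 8.53, 7.18 and 9.45 in treated mice. The lowest treated value of Cybb only just cleared the highest CUG10 value, and its difference of 1.83 ± 0.51 was the largest of the list. Cst7 (1.47 ± 0.54) and Itgax (0.99 ± 0.50) overlapped between the groups.

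Monocyte and border macrophage markers had a median of 1.25, with 7 of 10 at an unadjusted p under 0.05 on the higher side and 6 without overlap. Ly6c2, a surface protein of inflammatory monocytes whose reads may be shared with its neighbour Ly6c1, measured 5.98, 6.31 and 5.97 in CUG10 and 9.24, 7.09 and 10.79 in treated mice (2.95 ± 0.75). The treated mice spread widely and none overlapped with CUG10. Plac8 differed by 2.79 ± 0.79. Of 12 T and NK cell markers measured, 7 had an unadjusted p under 0.05 on the higher side and the median was 0.79. The cytotoxic protease Gzmb measured 4.83, 5.15 and 5.05 in CUG10, 7.02, 5.40 and 8.64 in treated and 7.96, 8.33 and 8.34 in vehicle-treated CUG300 mice (2.01 ± 0.64). Cd3e, a CD3 subunit of the T cell receptor complex, was near the lower end of the scale in every mouse. It ranged from 3.60 to 3.80 in CUG10 and from 3.73 to 4.69 in treated mice, with overlap (0.51 ± 0.22). These cell type markers moved together with the interferon and chemokine lists from mouse to mouse, and their part in those differences was not tested.

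Reactive astrocyte genes were higher, with 10 of 12 at an unadjusted p under 0.05 and a median of 1.00 beside 1.78 in vehicle-treated CUG300 mice. Gfap, the astrocyte intermediate filament, measured 13.66, 14.34 and 13.98 in CUG10, 14.99, 14.24 and 15.18 in treated and 15.24, 15.04 and 15.34 in vehicle-treated CUG300 mice. Treated replicate 2 was inside the CUG10 range, and the difference was 0.81 ± 0.25. The adhesion receptor Cd44 differed by 1.74 ± 0.53. Aqp4, the water channel of astrocyte endfeet, showed another pattern. It measured 10.84, 11.30 and 11.11 in CUG10, 12.29, 11.92 and 11.92 in treated and 11.80, 12.27 and 11.92 in vehicle-treated CUG300 mice. All 3 treated mice were above CUG10 and within or at the edge of the untreated range, replicate 2 included (0.96 ± 0.17, adjusted p = 0.119 by limma). Aqp4 was the one gene of 10 homeostatic astrocyte genes with an unadjusted p under 0.05.

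**Figure D3:**
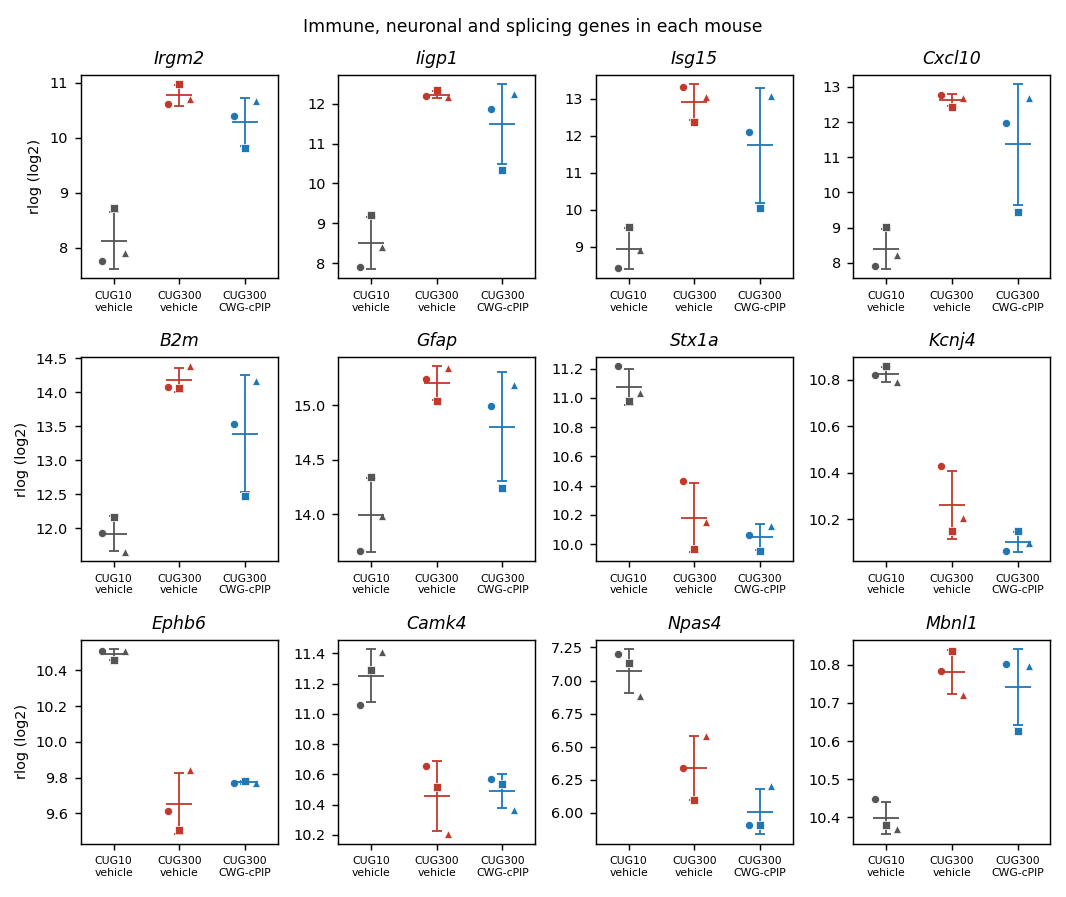
Rlog (y axis, log2) of 12 immune, neuronal and splicing genes in each mouse, with a point per mouse (circle, square and triangle for replicates 1, 2 and 3), the group mean as a horizontal line and ± 1 SD as bars (n = 3 per group). Treated values of Isg15, Cxcl10 and B2m spread from near CUG10 to the untreated level, whereas those of Stx1a, Kcnj4 and Ephb6 lie together and below every CUG10 mouse.

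The neuronal genes with clear negative differences were few but varied little among treated mice. Stx1a (chr5:135023482-135051100), the plasma-membrane SNARE protein syntaxin 1A of vesicle release, measured 11.22, 10.98 and 11.03 in CUG10, 10.06, 9.96 and 10.13 in treated and 10.43, 9.97 and 10.15 in vehicle-treated CUG300 mice. All treated mice lay well below the lowest CUG10 mouse and close to the untreated ones. The difference was -1.03 ± 0.13 (SE; 95% interval -1.32 to -0.74), with the smallest unadjusted p of the genes named, 2.04e-05, and an adjusted p of 0.0879 by limma. Kcnj4 (chr15:79480226-79512511), an inward-rectifier potassium channel, measured 10.82, 10.86 and 10.79 in CUG10 and 10.06, 10.15 and 10.10 in treated mice, with vehicle-treated CUG300 mice at 10.43, 10.15 and 10.20. Its treated values lay close together, at or below the untreated values (-0.72 ± 0.09, adjusted p = 0.0879 by limma). Ephb6, an Eph-family receptor without kinase activity, measured 10.51, 10.46 and 10.51 in CUG10 and 9.77, 9.78 and 9.77 in treated mice, among vehicle-treated values of 9.61, 9.51 and 9.84. Ephb6 hardly varied within either of the compared groups, against a difference of -0.72 ± 0.10. Sv2b, a synaptic vesicle glycoprotein, measured 12.52, 12.53 and 12.73 in CUG10 and 12.04, 11.83 and 11.95 in treated mice (-0.65 ± 0.10, adjusted p = 0.097 by limma). In a fit on only the 2 groups compared, Stx1a, Kcnj4, Ephb6 and Tmem178 were among 14 genes that passed an adjusted p of 0.05, 4 of them higher and 10 lower.

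Presynaptic vesicle release genes as a list had a median of -0.24, beside -0.53 in vehicle-treated CUG300 mice. Of 22 genes, 5 had an unadjusted p under 0.05 on the lower side, against 5.31% of all genes, and 11 did not overlap, against 12.4%. None of the 22 was above 0, and the list's differences ran from -1.03 to -0.0044. Snap25, the partner SNARE of syntaxin, measured 15.11, 14.97 and 14.90 in CUG10 and 14.78, 14.78 and 14.57 in treated mice, without overlap but with an interval of -0.60 to 0.03 that includes 0. Glutamate receptors and postsynaptic scaffolds had a median of -0.05, beside -0.42 in vehicle-treated CUG300 mice, and 2 of 21 had an unadjusted p under 0.05. Grin1, the obligatory NMDA receptor subunit, measured 12.66, 12.73 and 12.73 in CUG10, 12.57, 12.61 and 12.47 in treated and 12.03, 12.45 and 12.24 in vehicle-treated CUG300 mice. Its treated values lay between the other groups, nearer to CUG10 (-0.15 ± 0.11, 95% interval -0.41 to 0.10).

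GABA-A receptor subunits had a median of -0.01, and 0 of 10 had an unadjusted p under 0.05. Gabra3 ranged from 9.48 to 10.12 in CUG10 and from 8.93 to 9.98 in treated mice, which overlap (-0.37 ± 0.25), and stood at 8.68 to 8.91 in vehicle-treated CUG300 mice. Potassium and HCN channels had a median of -0.21 with 3 of 18 lower at an unadjusted p under 0.05, among them the M-current subunit Kcnq5 (-0.60 ± 0.13), which measured 9.59, 9.65 and 9.85 against 9.21, 9.16 and 8.92. Voltage-gated sodium and calcium channels had a median of -0.08, with 2 of 17 lower. Axon growth and adhesion genes had a median of -0.18, with 2 of 17 lower. Over all genes tested, 5.31% were lower at this threshold. The cell adhesion molecule L1cam measured 9.75, 9.69 and 9.92 in CUG10, 9.62, 9.82 and 9.39 in treated and 8.85, 9.33 and 8.56 in vehicle-treated CUG300 mice. The L1cam values of treated mice overlapped with CUG10 and lay above all untreated CUG300 mice (-0.18 ± 0.19 from CUG10, 95% interval -0.61 to 0.25). Among general neuronal genes, Rbfox3, which encodes the nuclear marker NeuN, had an interval of -0.41 to 0.05, and the list median was -0.22 with 2 of 10 lower.

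Among calcium signaling and activity-regulated genes, single members had negative differences. Camk4, a nuclear calcium-dependent kinase that activates CREB, measured 11.06, 11.29 and 11.41 in CUG10, 10.57, 10.54 and 10.36 in treated and 10.66, 10.52 and 10.20 in vehicle-treated CUG300 mice. The treated mice lay inside the range of untreated CUG300 mice and neither overlapped with CUG10 (-0.76 ± 0.14, adjusted p = 0.119 by limma). Its activating kinase Camkk2 differed by -0.52 ± 0.15, while the whole plasticity list had a median of -0.14 with 2 of 12 lower at an unadjusted p under 0.05. Npas4, a neuronal activity-induced transcription factor, measured 7.20, 7.13 and 6.88 in CUG10, 5.91, 5.91 and 6.20 in treated and 6.34, 6.10 and 6.58 in vehicle-treated CUG300 mice. The treated mice were the lowest on average for Npas4 (-1.06 ± 0.16, adjusted p = 0.097 by limma). Arc measured 12.47, 11.92 and 11.92 in CUG10 and 10.94, 10.77 and 11.34 in treated mice, below all CUG10 values, while vehicle-treated CUG300 mice ranged from 11.34 to 13.03 (-1.09 ± 0.40). Fos overlapped between the groups and had an interval of -1.43 to 0.33. The immediate early list had a median of -0.58, with all 12 genes below 0. It held 4 at an unadjusted p under 0.05 and 6 without overlap, against 5.31% and 12.4% of all genes. Its median was 0.17 in vehicle-treated CUG300 mice, and 0.01 in the treated comparison once the mean of the thalamus markers was a covariate. That covariate differed between the compared groups without overlap, so the 0.01 cannot separate tissue from group.

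Further genes on the lower side had small p values or marked particular neurons. Tbr1, a transcription factor of glutamatergic forebrain neurons, measured 10.42, 10.13 and 10.21 in CUG10 and 9.17, 9.46 and 8.96 in treated mice (-1.06 ± 0.14). The muscarinic receptor Chrm4 measured 8.77, 8.50 and 8.64 against 7.58, 7.85 and 7.63 (-0.95 ± 0.13), and vehicle-treated CUG300 mice stood at 7.80, 7.52 and 7.73. Both had an adjusted p of 0.0879 by limma and treated values far below CUG10. E2f1, a cell cycle transcription factor, measured 7.61, 7.68 and 7.62 against 6.87, 6.87 and 6.93 (-0.75 ± 0.11), and Dkkl1 differed by -1.29 ± 0.20. Sst, the peptide of a class of interneurons, measured 12.07, 11.71 and 11.62 against 10.79, 11.11 and 11.02, without overlap (-0.82 ± 0.27). Interneuron markers had a median of -0.22 with 2 of 9 lower at an unadjusted p under 0.05, against 5.31% of all genes.

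Markers of tissue next to the hippocampus differed as well. All 13 thalamus and diencephalon markers were above 0 in treated mice, 8 had an unadjusted p under 0.05 and 9 did not overlap, with a median of 0.89 beside 0.34 in vehicle-treated CUG300 mice. Tcf7l2, a Wnt-pathway transcription factor strong in thalamic neurons, measured 7.16, 7.03 and 6.51 in CUG10, 9.39, 9.43 and 8.95 in treated and 8.10, 8.46 and 6.91 in vehicle-treated CUG300 mice. The treated mice were above both other groups, replicate 2 as high as the rest (2.36 ± 0.36, adjusted p = 0.097 by limma). Calb2, which encodes the calcium buffer calretinin, measured 7.99, 7.95 and 7.36 against 9.55, 9.41 and 9.45 (1.70 ± 0.24), and Gata3 measured 4.03, 3.97 and 3.93 against 5.34, 5.63 and 4.93 (1.32 ± 0.18). Both had an adjusted p of 0.0921 by limma and lay above vehicle-treated CUG300 mice. The vesicular glutamate transporter Slc17a6 ranged from 7.54 to 9.21 in CUG10 and from 9.52 to 10.46 in treated mice (1.80 ± 0.56). Prkcd, another thalamic marker, overlapped (0.55 ± 0.47). Foxb1 and Mab21l2, genes of the developing diencephalon, were near 3 in all CUG10 mice. They stood at 4.59, 4.85 and 3.37, and at 4.68, 5.35 and 3.28, in treated mice, with replicate 3 the lowest for each.

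Choroid plexus markers were low in all 3 treated mice. Averaged over 14 genes they stood at -1.17, -1.13 and -1.14 relative to the CUG10 mean, whereas CUG10 mice ranged from -1.33 to 1.303 and vehicle-treated CUG300 mice from 0.49 to 1.58. CUG10 replicate 1 thus lay as low as the treated mice. Ttr, the thyroid hormone carrier made in choroid plexus, measured 9.78, 13.20 and 14.74 in CUG10, 10.26, 9.51 and 10.22 in treated and 15.89, 13.88 and 14.74 in vehicle-treated CUG300 mice (-2.58 ± 1.06). Kcnj13, an inward-rectifier potassium channel of the same epithelium, measured 5.41, 6.55 and 7.67 against 4.99, 5.33 and 4.94 and did not overlap (-1.46 ± 0.54). The list had 5 of 14 lower at an unadjusted p under 0.05 and 3 without overlap, against 5.31% and 12.4% of all genes. Its median was -1.12. Without CUG10 replicate 1 it was -1.72 and without CUG10 replicate 3 it was -0.55. Ccdc153, a gene of ciliated cells such as ependyma, measured 6.67, 7.78 and 7.36 against 5.37, 6.17 and 5.68 (-1.53 ± 0.49).

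Markers of striatum and cortex differed mostly downward. Ppp1r1b, the dopamine-regulated phosphatase inhibitor DARPP-32, ranged from 10.30 to 11.75 in CUG10 and from 8.80 to 9.59 in treated mice (-1.97 ± 0.49). The dopamine receptor Drd1 ranged from 6.87 to 8.54 and from 6.15 to 6.59 (-1.46 ± 0.41). For both of these genes CUG10 replicate 1 was the lowest of its group and nearest to the treated mice. Cplx3, a complexin of deep cortical subplate neurons, measured 8.63, 8.24 and 8.44 against 6.46, 7.33 and 6.38 (-1.71 ± 0.42), and Hs3st2 measured 8.43, 8.09 and 8.37 against 6.24, 6.88 and 5.90 (-1.95 ± 0.40). Among the largest negative differences without overlap were also Myl4, Ctgf and Ovol2, at -2.12 ± 0.56, -1.72 ± 0.45 and -1.39 ± 0.25. The cortex and striatum list had a median of -0.75, and its mean in vehicle-treated CUG300 mice ranged from -0.97 to -0.20. Of its 9 genes, 5 were lower at an unadjusted p under 0.05 and 4 did not overlap, against 5.31% and 12.4% of all genes.

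Markers of the hippocampal subfields were mixed. The CA1 markers had a median of -0.06. Wfs1, which marks CA1 pyramidal cells, measured 10.72, 10.96 and 11.03 in CUG10 and 11.31, 11.04 and 11.34 in treated mice, without overlap by a narrow margin (0.33 ± 0.12). The CA3 markers had a median of -0.31, all 4 below 0 and 1 lower at an unadjusted p under 0.05. That gene was Grik4, a kainate receptor subunit, at 8.94, 9.25 and 9.37 in CUG10 and 8.90, 8.80 and 8.66 in treated mice, without overlap (-0.40 ± 0.13). Dentate granule cell markers had a median of 0.58, with 1 of 7 higher at an unadjusted p under 0.05 and 4 without overlap. Over all genes tested, 8.12% were higher and 5.31% lower at that threshold, and 13.4% were higher without overlap. C1ql2 measured 9.95, 9.88 and 9.92 in CUG10, 10.63, 10.57 and 10.66 in treated and 9.89, 10.85 and 8.98 in vehicle-treated CUG300 mice. The compared groups were tight and apart (0.70 ± 0.37, pooled over 3 groups), and the vehicle-treated mice spanned both. Prox1 overlapped (0.56 ± 0.42).

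Tissue markers moved with the comparison. With the mean of the thalamus list in each mouse as a covariate, an unadjusted p under 0.05 was found for 172 genes on the higher and 217 on the lower side, and with the choroid plexus list for 537 and 297. With the cortex and striatum list, an alternative chosen after the data were seen, the numbers were 258 and 212. The median of the interferon-stimulated list was 1.94, 2.30 and 2.27 in these 3 fits, beside 2.13 without a covariate. The thalamus mean stood at 0.29, 0.02 and -0.31 in CUG10 and at 1.11, 0.80 and 1.18 in treated mice, without overlap. The cortex and striatum mean stood at -0.71, 0.17 and 0.54 against -0.90, -0.75 and -0.97, also without overlap. For cortex and striatum the margin was narrow, with CUG10 replicate 1 next to the treated mice. The choroid plexus mean overlapped, with CUG10 replicate 1 at -1.33 and treated mice from -1.17 to -1.13. Each of the covariates shifted with the group on average, so counts and medians from such fits cannot separate tissue from group. The part of dissection in these differences was not tested.

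**Figure D4:**
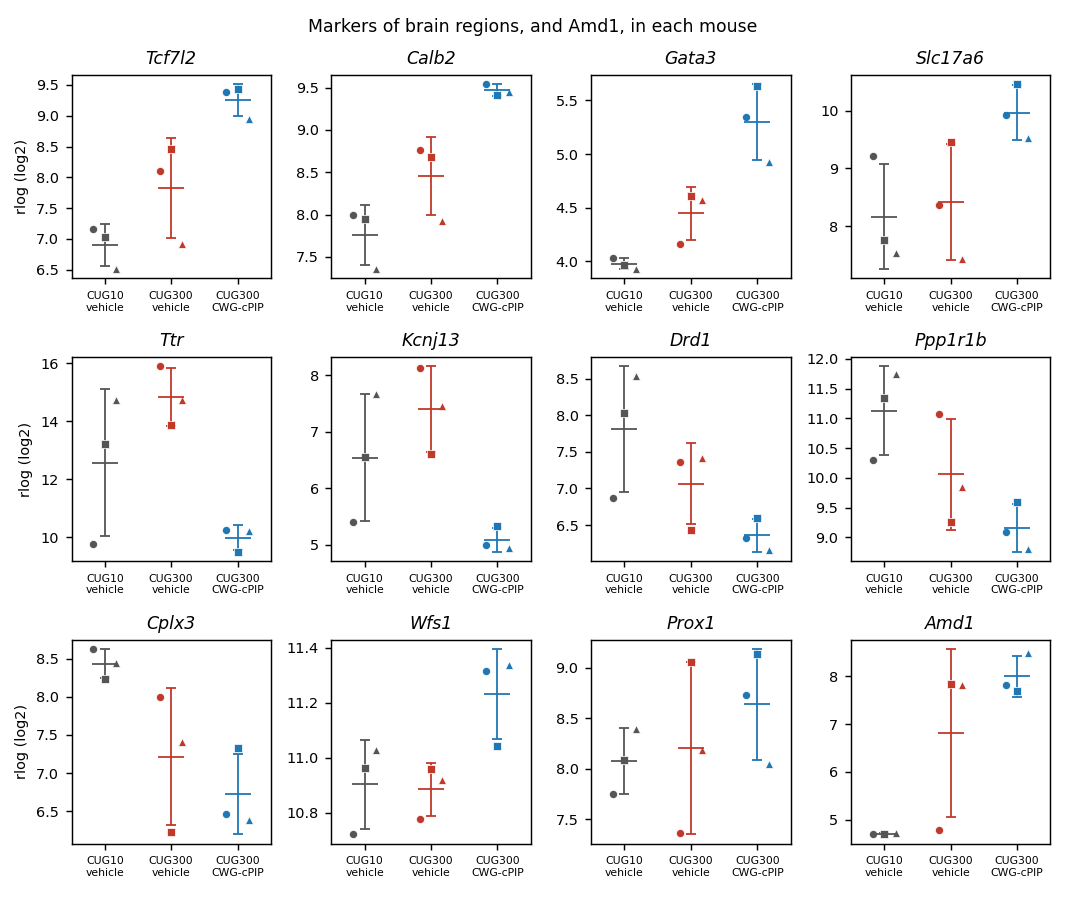
Rlog (y axis, log2) of 11 markers of brain regions and of Amd1 in each mouse, with a point per mouse, the group mean as a horizontal line and ± 1 SD as bars (n = 3 per group). Treated mice lie above both other groups for Tcf7l2, Calb2 and Gata3 and low for Ttr, Kcnj13 and Drd1, and Amd1 lies near 4.7 in 4 mice and between 7.69 and 8.48 in the other 5.

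Mature oligodendrocyte genes all had negative differences, 10 of 10, with a median of -0.61 beside -0.48 in vehicle-treated CUG300 mice. Of these, 8 did not overlap but 1 had an unadjusted p under 0.05, beside 12.4% and 5.31% of all genes. Mbp, a major myelin protein, measured 15.09, 15.51 and 15.11 in CUG10 and 14.58, 15 and 14.35 in treated mice, while vehicle-treated CUG300 mice ranged from 14.03 to 15.22. Its interval of -1.25 to 0.07 includes 0, and Mag, a myelin adhesion protein, differed by -0.70 ± 0.29. Precursor and premyelinating genes had a median of -0.47 with 1 of 9 lower. Among mural cell and fibroblast markers, with a median of 0.24, the matrix proteoglycan Dcn measured 9.04, 7.91 and 7.68 in CUG10 and 9.22, 9.65 and 10.41 in treated mice (1.55 ± 0.39). Endothelial markers had a median of 0.15 with 3 of 8 higher, against 8.12% of all genes. The globin gene Hba-a1 was at 3.62 to 3.64 in CUG10 mice and at 8.69, 5.67 and 3.63 in treated mice, so its difference of 2.37 ± 1.41 rests on 2 of 3 animals, and near-identical globin copies may share its reads.

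Genes whose products bind CUG repeats, and orthologues of human repeat disease genes, showed small differences. Mbnl1, the splicing factor sequestered by CUG RNA, measured 10.45, 10.38 and 10.37 in CUG10, 10.80, 10.63 and 10.80 in treated and 10.78, 10.84 and 10.72 in vehicle-treated CUG300 mice. All treated mice were above CUG10 and near the untreated level (0.34 ± 0.08, 95% interval 0.15 to 0.53, adjusted p = 0.163 by limma). Mbnl2 overlapped (0.14 ± 0.16), and Celf1, whose protein opposes MBNL at many exons, had an interval of -0.19 to 0.19. The 14 splicing regulators measured had a median of 0.05, or -0.01 after centring each mouse on its median, with 2 higher at an unadjusted p under 0.05. Dmpk, the gene whose human counterpart carries the myotonic dystrophy repeat, measured 7.37, 7.62 and 7.54 in CUG10 and 7.08, 7.24 and 7 in treated mice, with an interval of -0.82 to 0.01. Htt overlapped, with an interval of -0.63 to 0.42. The 13 orthologues of repeat disease genes had a median of 0.11. App and Mapt, the precursors of amyloid and tau, differed by -0.23 ± 0.09 and -0.20 ± 0.12, both without overlap. App measured 14.64, 14.70 and 14.75 against 14.46, 14.50 and 14.43.

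Because CWG-cPIP is directed at CAG and CTG repeats, transcripts with such runs in the mouse genome were examined. An uninterrupted run of at least 10 units occurred in annotated transcripts of 128 genes, of which 53 were tested. The run lay in coding sequence in 21 of them, in the 3′-UTR in 11, in the 5′-UTR in 10 and in a transcript without annotated coding sequence in 11. Their median difference was 0.0041. At an unadjusted p under 0.05 there were 4 higher and 1 lower of the 53, beside 8.12% and 5.31% of all genes. Without overlap there were 9 higher and 5 lower of the 53, beside 13.4% and 12.4% of all genes. With at least 5 units, 476 genes were tested and the median was 0.0015, with 30 higher and 24 lower. The 13825 tested genes without a run had a median of 0.00074, and 1139 of them were on the higher and 734 on the lower side at that threshold.

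The 5 long-run genes at an unadjusted p under 0.05 are named here because they are so few, 4 of them after their values were seen. Their counts did not exceed the shares of all genes, and a link to the repeats was not tested. Zfhx3, a large zinc finger transcription factor, has 11 CAG units in coding sequence at chr8:108947522-108947554. It measured 5.94, 5.97 and 5.73 in CUG10, 6.64, 6.73 and 6.66 in treated and 6.43, 6.53 and 6.24 in vehicle-treated CUG300 mice. The treated mice were the highest of the 3 groups (0.80 ± 0.12, adjusted p = 0.097 by limma). Maml2, a Notch coactivator with 13 CAG units in coding sequence, measured 8.14, 8.19 and 8.11 in CUG10 and 8.70, 8.66 and 8.76 in treated mice (0.56 ± 0.14). Gpr132, with 13 CAG units in the 5′-UTR, measured 4.30, 4.51 and 4.18 in CUG10 and 5.31, 4.47 and 6.17 in treated mice. Treated replicate 2 lay inside the CUG10 range, and the difference of 0.99 ± 0.37 was 0.56 without treated replicate 3 and 1.41 without treated replicate 2. Pcolce, with 12 CTG units in the 5′-UTR, measured 7.19, 6.77 and 7.32 against 7.34, 7.52 and 7.45. Its groups were apart by a narrow margin, and the difference of 0.34 ± 0.15 was 0.18 without CUG10 replicate 2. Glyctk, with 14 CAG units in the 3′-UTR, differed by -0.28 ± 0.10. Maml2, Gpr132, Pcolce and Glyctk differed from CUG10 in the same direction in vehicle-treated CUG300 mice, by 0.55, 1.59, 0.79 and -0.32, and Zfhx3 did so by 0.52.

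Amd1 (chr10:40287458-40302188), which encodes S-adenosylmethionine decarboxylase of polyamine synthesis, showed the largest difference of all genes tested. It measured 4.69, 4.70 and 4.71 in CUG10, 7.83, 7.69 and 8.48 in treated and 4.78, 7.85 and 7.82 in vehicle-treated CUG300 mice. The values fell at 2 levels with nothing between, and vehicle-treated replicate 1 was at the CUG10 level. The difference was 3.30 ± 0.70 (adjusted p = 0.13 by limma with all 9 mice), and in the fit on only the 2 groups compared its adjusted p was 0.0254, the smallest there. Its near-identical copy Amd2, with which reads may be shared, measured 11.76, 11.76 and 11.82 against 11.50, 11.54 and 11.36 (-0.31 ± 0.12). Other polyamine genes gave the list of 12 a median of -0.03. Atp6ap1l split the mice in the same way in the opposite direction, at 5.83, 5.63 and 5.91 in CUG10, 4.58, 4.69 and 4.52 in treated and 5.81, 4.73 and 4.80 in vehicle-treated CUG300 mice (-1.19 ± 0.26).

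The 16 listed cell cycle and DNA replication genes were all above 0, with a median of 0.31 beside 0.57 in vehicle-treated CUG300 mice. Of these, 5 had an unadjusted p under 0.05 on the higher side and 12 did not overlap, against 8.12% and 13.4% of all genes. E2f1, which was not in this list, differed the other way (-0.75 ± 0.11). Mcm6, a subunit of the replicative helicase, measured 8.17, 8.42 and 8.41 in CUG10 and 9.51, 8.85 and 9.83 in treated mice (1.06 ± 0.22), and the proliferation marker Mki67 measured 5.64, 5.81 and 5.60 against 6.32, 6.21 and 6.16 (0.55 ± 0.24). Both were without overlap. Cholesterol synthesis genes had a median of -0.25, and 7 of 18 had an unadjusted p under 0.05 on the lower side, with 13 without overlap. Over all genes those shares were 5.31% and 12.4%. The sterol carrier Stard4 measured 7.12, 7.35 and 7.59 against 6.92, 7.07 and 6.40, without overlap (-0.56 ± 0.20). The cholesterol median in vehicle-treated CUG300 mice was -0.17.

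Stress genes were mixed. The integrated stress and unfolded protein response list had a median of 0.31, and at an unadjusted p under 0.05 it held 4 higher and 1 lower of 17. Atf3, a stress-induced transcription factor, measured 6.18, 6.52 and 6.10 in CUG10, 7.86, 6.21 and 9.22 in treated and 9.001, 8.50 and 9.77 in vehicle-treated CUG300 mice, with treated replicate 2 inside the CUG10 range (1.495 ± 0.64). Mthfd2, a mitochondrial folate enzyme driven by the same response, differed by 0.60 ± 0.22 without overlap. The p53 targets had a median of 0.11, beside 0.60 in vehicle-treated CUG300 mice, with 1 of 12 higher, near the 8.12% of all genes. Cdkn1a, the cell cycle inhibitor p21, measured 10.75, 11.25 and 10.89 in CUG10 and 11.26, 10.04 and 12.08 in treated mice, which overlap, with an interval of -0.91 to 1.24. Subunits of oxidative phosphorylation had a median of -0.15, with 1 of 15 lower, near the 5.31% of all genes.

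**Figure D5:**
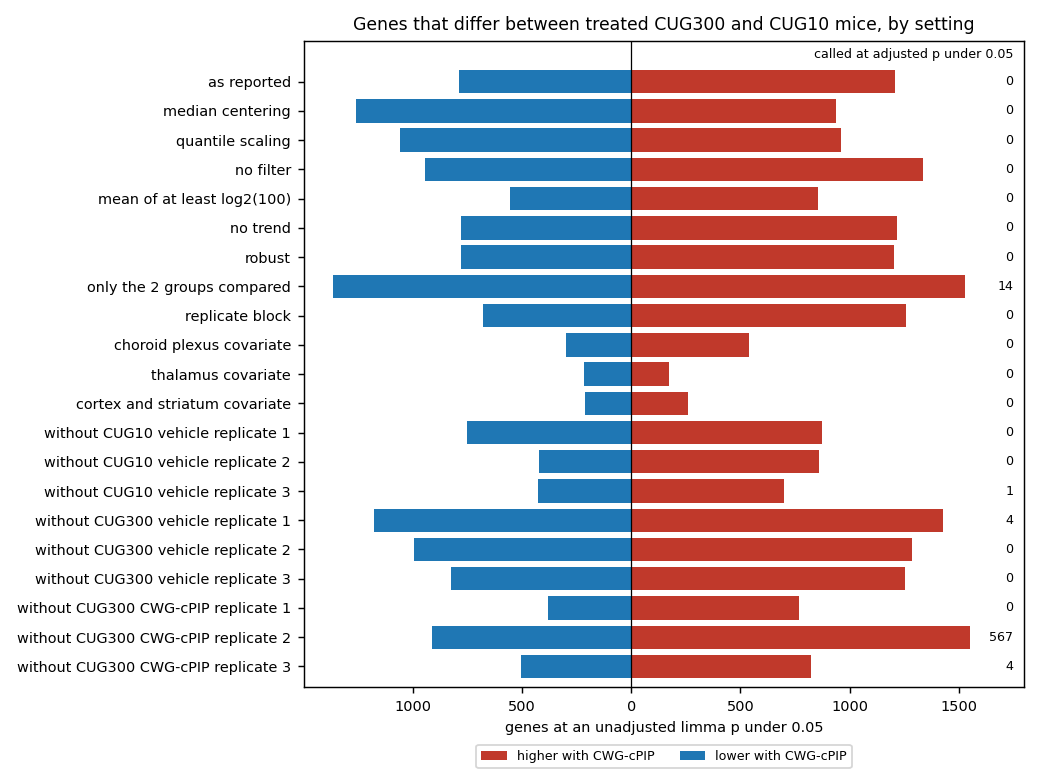
Number of genes at an unadjusted limma p under 0.05 (x axis, higher to the right, lower to the left) under each setting of the comparison, with the number at an adjusted p under 0.05 at the right edge. Leaving out treated replicate 2 gives 567 genes at an adjusted p under 0.05, and no other setting shown gives more than 14.

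Which treated mouse was left out thus set how many immune genes passed. Without treated replicate 2, an adjusted p under 0.05 was reached by all 25 interferon-stimulated genes, all 12 GTPases, 14 of 15 class I genes, 12 of 14 chemokines, 8 of 12 reactive astrocyte genes and 6 of 10 complement genes. Smaller shares passed among monocyte (5 of 10), activated microglia (5 of 15), T and NK cell (4 of 12), homeostatic microglia (3 of 12) and class II genes (1 of 8). Of the thalamus markers, 3 of 13 passed on the higher side. On the lower side 2 presynaptic, 2 potassium channel, 1 plasticity, 1 immediate early, 1 axon and 1 cholesterol gene passed. Without treated replicate 1 or replicate 3 none of these immune genes passed. Over all single-mouse omissions the difference of Stx1a ran from -1.08 to -0.96 and that of Kcnj4 from -0.74 to -0.70, whereas that of Isg15 ran from 2.13 to 3.65.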

How the data were processed

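Hippocampal total RNA of 9 mice, 3 per group, was sequenced as directional paired-end libraries. Per the labels and the study's methods, trimming (Trim Galore 0.6.6), alignment to mm10, that is GRCm38 (STAR 2.7.9a), and quantification of genes (RSEM 1.3.3) preceded the regularized logarithm of DESeq2 1.36.0, and the authors deposited 1 file of these log2 values per mouse. That transformation shrinks poorly covered genes toward their mean and keeps no depth, so no count model or counting interval was used. The gene annotation, use of strand and transformation options are not given in the sources used here.

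Of 24411 genes per file, 5175 were at 0 in all mice. The 14867 genes whose average across the 9 mice reached log2(10) were kept. Differences were tested with limma 3.58.1 in R 4.3.3 (group means, moderated variance with trend, 6 residual and 3.03 prior degrees of freedom) with Benjamini-Hochberg adjustment over all genes kept, and the script was tested on simulated data. Errors of differences are SE, and values of mice are listed by replicate number, which has no order. Mice were not treated as paired by replicate number. Deviations from group means correlated between -0.50 and 0.41 for the same number, with differing sign. The highest values were 0.40 and 0.41, between treated and vehicle-treated CUG300 mice of replicates 2 and 3.

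The members and lists were chosen with earlier results of these data known. The genes named were the 10 largest differences without overlap and the 10 smallest p in each direction, the first 2 and the 2 most different of each list, genes passing in alternative fits and genes the study names. Bst2, Ccl2, Maml2, Glyctk, Gpr132 and Pcolce were added after their values were seen. Predicted names (897 genes) and symbols turned into dates (23) were not named. A few genes that the rule selects are not reported here. Promoters came from RefSeq GRCm38.p6, and repeat runs from GENCODE transcripts of the same build. Alternatives were other scalings, filters, variance settings, sample sets, a replicate block, tissue covariates and the omission of each mouse.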

Additional observations from a re-analysis of the deposited data

How the results depend on the processing

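No gene passed an adjusted p of 0.05 by limma with median centring, quantile scaling, either filter, other variance settings, a minimum difference of 1 or any tissue covariate. The fit on only the 2 groups gave 14 genes and a threshold of 0.1 gave 21. Leaving out 1 mouse gave 0 to 567, the 567 without treated replicate 2, 4 without treated replicate 3, 4 without CUG300 vehicle replicate 1 (Amd1, Kcnj4, Atp6ap1l and Stx1a) and 1 without CUG10 replicate 3. At an unadjusted p under 0.05, omissions gave 701 to 1549 genes higher and 380 to 1179 lower, beside 1207 and 790 with all mice. The lowest values came without CUG10 replicate 3 (701 higher, 425 lower) and without treated replicate 1 (770 and 380), and the lower counts were 422 without CUG10 replicate 2 and 503 without treated replicate 3. Median centring gave 1259 lower and 2821 lower without overlap, and the fit on 2 groups 1364 lower. Covariates gave 537 higher and 297 lower (choroid plexus), 172 and 217 (thalamus) and 258 and 212 (cortex and striatum, chosen after seeing the data). Deviations of same-numbered mice correlated with differing sign. With a replicate block 0 genes passed, while an unadjusted p under 0.05 was found for 1256 higher and 681 lower. The cause of these shifts was not tested.

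Some named genes changed sign. With the thalamus covariate these were Prkcd (-0.80), C1ql2 (-0.54), Hba-a1 (-0.45), Dmpk (0.16), Mag (0.15) and Celf1 (-0.0037), and with the cortex and striatum covariate Kcnj13 (0.052) and Ttr (0.36). Both covariates differed between the compared groups without overlap, so these signs cannot separate tissue from group. Over single-mouse omissions P2ry12 ran from -0.36 to 0.049, Htt from -0.22 to 0.034 and Cdkn1a from -0.31 to 0.71, with the other sign only without treated replicate 3. Celf1, near 0 throughout, was -0.059 with median centring and ran from -0.043 to 0.059 over omissions. Depth behind each value is unknown, and shrinkage of the deposited values understates differences of poorly covered genes.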
